A study of Mus musculus with 17 samples.

Results

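The 10 genes described here are Il22ra1, which encodes a chain of the receptor for interleukin 22 (IL22), and 9 genes known as epithelial defense or acute phase genes (Reg3b, Reg3g, Lcn2, Fut2, Duox2, Duoxa2, Saa1, Saa3 and Nos2). They were chosen by symbol, through the Ensembl identifiers of the count tables, and make up 10 of the 55421 genes counted. RNA was sequenced from colorectal tumors that had been induced in mice with azoxymethane (AOM), a mutagen, and dextran sulfate sodium (DSS), which inflames the colon. Tyk2Δ/Δ tumors (3 libraries, labelled Tyk2KO) came from mice with a germline deletion of the Janus kinase Tyk2 and were compared with Tyk2+/+ tumors (3 libraries, Tyk2wt). Tyk2ΔIEC tumors (4 libraries, Tyk2DIEC) came from Tyk2fl/fl Villin-cre mice, in which cre is driven in the intestinal epithelium, and were compared with cre-negative Tyk2fl/fl tumors (7 libraries, Tyk2fl). All mice were on a C57BL/6 background, and age and sex are not given in the sources used here. A figure legend of the study speaks of pooled tumor samples and its extraction protocol of single tumors. Whether the libraries of a genotype came from separate mice is not stated. The p-values therefore cover the spread among libraries alone, part of which may be technical, and cannot be read as covering the spread among mice.

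IL22 is made by lymphocytes and acts on epithelial cells. Its receptor pairs Il22ra1 with Il10rb, a chain shared with other cytokines, and signals through the kinases Jak1 and Tyk2 to the transcription factor Stat3. In the gut IL22 is known to induce antimicrobial lectins of the Reg3 family, the iron-sequestering protein lipocalin 2 (Lcn2), fucosylation of surface glycans (Fut2), hydrogen peroxide production (Duox2 with its partner Duoxa2) and serum amyloid A proteins. Nos2, the inducible nitric oxide synthase, is better known as a target of interferon γ, and macrophages make it as well as epithelium.

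The authors counted reads per gene, and totals on genes were 19922606 to 21707373 in Tyk2Δ/Δ, 19789347 to 21318077 in Tyk2+/+, 19129696 to 20334948 in Tyk2ΔIEC and 29777763 to 35427965 in Tyk2fl/fl libraries. Every Tyk2fl/fl library was thus deeper than every library of the other genotypes. In Tyk2ΔIEC against Tyk2fl/fl tumors genotype and depth therefore cannot be told apart for any gene. Levels are given as CPM, the usual unit of counts scaled to a common library total, after TMM scaling (trimmed mean of M values) of all 17 libraries. The 10 genes held between 0.0898% and 0.180% of a library's counts. Tyk2 counts do not check the labels, since the deletion removes only the exon with the start codon: Tyk2 was at 58.3 to 58.5 CPM in Tyk2Δ/Δ against 55.2 to 57.1 CPM in Tyk2+/+ tumors, and at 51.1 to 55.4 CPM in Tyk2ΔIEC against 42.8 to 55.1 CPM in Tyk2fl/fl tumors. Tyk2fl/fl replicates 1 to 3 stood apart by 40656 to 45446 counts of Xist, the RNA that coats the silent X chromosome, which had at most 106 counts in each of the other 14 libraries. By this RNA those 3 libraries read as female, though sex is not labelled, and no Tyk2ΔIEC library had such counts. Sex may thus differ between the Tyk2ΔIEC tumors and part of their controls. The epithelial markers (Epcam, Vil1, Cdx2 and 5 others) summed to 8077 to 10281 CPM in Tyk2ΔIEC against 7294 to 11903 CPM in Tyk2fl/fl tumors, and to 9384 to 9872 CPM in Tyk2Δ/Δ against 8626 to 10219 CPM in Tyk2+/+ tumors. In bulk tumor RNA fewer cells of a type and less RNA per cell cannot be told apart.

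The regions before the transcript starts are shown for 4 of the genes: Il22ra1 and Saa3, whose transcripts passed the test in a comparison of a deletion with its controls, and the paralogs Reg3b and Reg3g. RefSeq sequence (GRCm38.p6) was at hand for 8 of the 10 genes, and Fut2 and Nos2 are named only. Each line runs 5′ to 3′ on the gene's strand within the 250 bases before the start and leaves out bases that GENCODE annotates as exon. Capitals mark matches to TTCNNNGAA, the palindromic core bound by Stat factors, or to TATAAA, the TATA box, searched on both strands.
Il22ra1 (chr4:135727909-135728158, + strand): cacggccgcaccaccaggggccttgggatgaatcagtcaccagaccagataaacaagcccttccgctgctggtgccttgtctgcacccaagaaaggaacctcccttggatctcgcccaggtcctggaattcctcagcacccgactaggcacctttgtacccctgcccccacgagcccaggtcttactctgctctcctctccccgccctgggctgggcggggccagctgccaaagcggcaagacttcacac
Saa3 (chr7:46715701-46715926, - strand): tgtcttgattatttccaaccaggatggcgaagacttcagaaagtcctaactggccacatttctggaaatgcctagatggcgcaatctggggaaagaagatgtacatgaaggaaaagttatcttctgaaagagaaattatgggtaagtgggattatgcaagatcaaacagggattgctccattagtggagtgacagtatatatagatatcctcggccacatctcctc
Reg3b (chr6:78370707-78370860, + strand): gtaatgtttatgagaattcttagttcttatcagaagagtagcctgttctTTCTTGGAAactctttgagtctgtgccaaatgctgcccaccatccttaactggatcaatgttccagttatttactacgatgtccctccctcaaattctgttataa
Reg3g (chr6:78468875-78469124, - strand): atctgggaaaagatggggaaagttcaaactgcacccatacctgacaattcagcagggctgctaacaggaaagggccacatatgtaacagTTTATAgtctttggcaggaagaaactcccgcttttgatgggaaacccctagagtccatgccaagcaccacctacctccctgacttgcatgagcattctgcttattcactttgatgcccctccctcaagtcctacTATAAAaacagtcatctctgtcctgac

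Among the 8 windows of 250 bases, TTCNNNGAA was found once, 129 bases before the start of Reg3b. Of all 32851 RefSeq mouse windows of this length, 7.02% hold it. TATAAA stood 29 bases before the start of Reg3b (partly in an annotated exon and so not shown), 27 bases before that of Reg3g and 30 bases before that of Duoxa2, and 12.4% of all windows hold it on either strand. The Reg3b and Reg3g windows shared 177 of 257 aligned positions (68.9%), against 49.8% for Duox2 with Duoxa2 and 52.2% for Saa1 with Saa3. A match describes these letters only and is no evidence of binding.

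Per kilobase of exon, Saa1 was the most abundant of the 10 transcripts in every genotype, at a mean of 144 CPM per kb in Tyk2Δ/Δ, 123 in Tyk2+/+, 114 in Tyk2ΔIEC and 112 in Tyk2fl/fl tumors. Il22ra1 was the least abundant, with 6.63, 6.01, 5.52 and 2.82 CPM per kb in the same order of genotypes. The other 8 genes had genotype means between these. The genes also differed in how much tumors of the same genotype varied. Fut2 was the steadiest, with a coefficient of variation (SD over mean) of 2.82% in Tyk2Δ/Δ, 13.4% in Tyk2+/+, 6.45% in Tyk2ΔIEC and 11.7% in Tyk2fl/fl tumors. Reg3b varied most in Tyk2Δ/Δ (75.1%) and Tyk2fl/fl tumors (92.3%), and Saa1 in Tyk2ΔIEC tumors (74%).

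**Figure D1:**
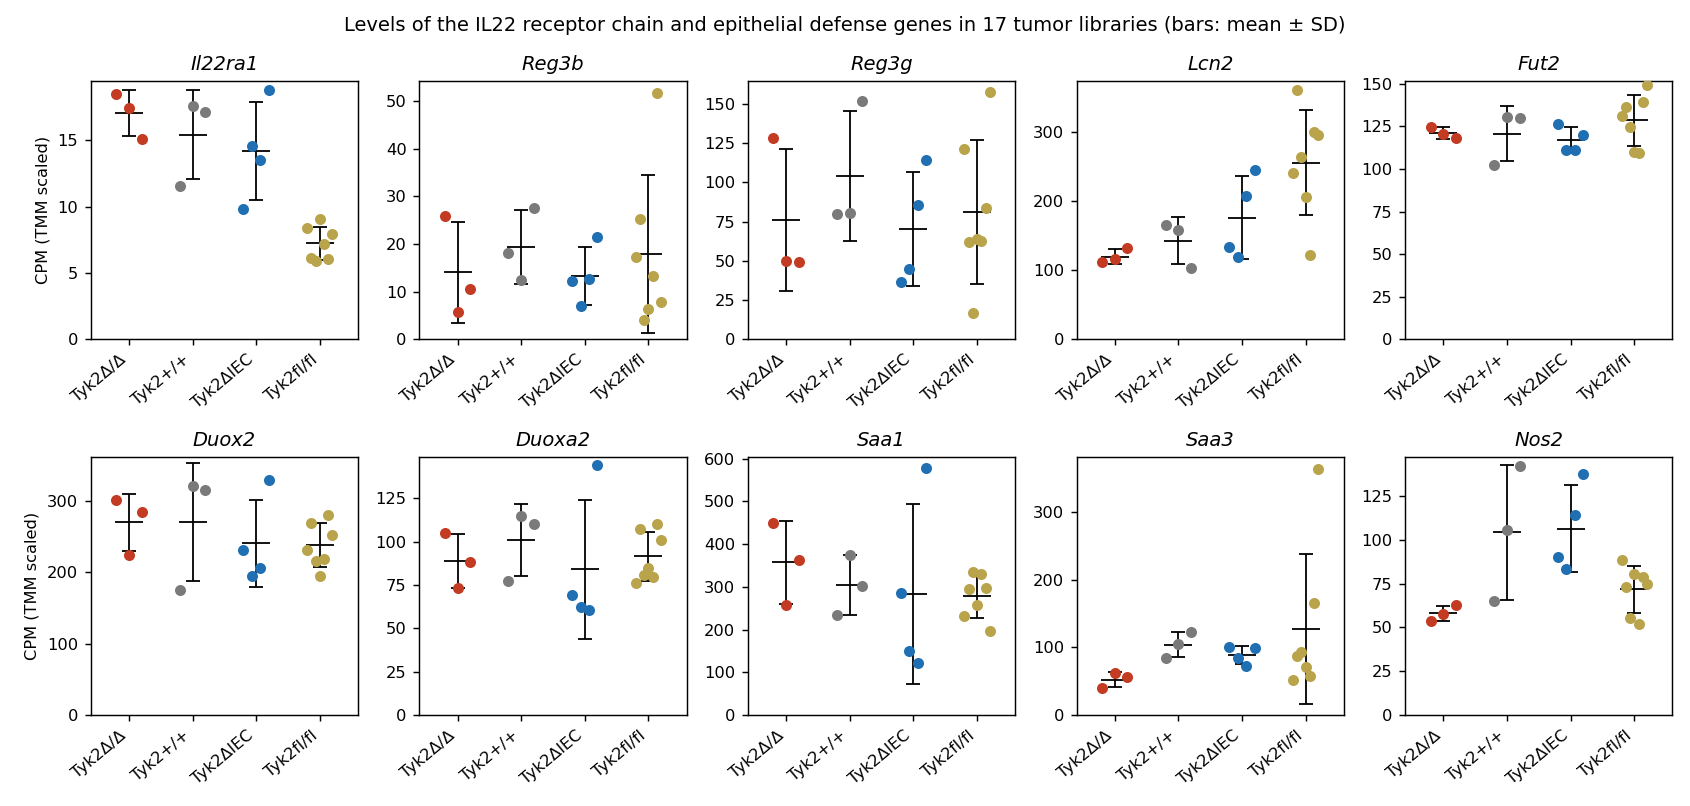
Level of each gene in CPM (vertical axis, from 0) in every library of the 4 genotypes, with the genotype mean ± SD. The 7 Tyk2fl/fl points of Il22ra1 lie between 5.91 and 9.06 CPM, below all points of the other genotypes, whereas Fut2 stays between 102 and 149 CPM throughout.

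In Tyk2Δ/Δ against Tyk2+/+ tumors, 1 of the 10 genes passed the test in the lower direction, the acute phase gene Saa3, and 0 passed in the higher direction. To pass, a gene needed an adjusted p under 0.05 (quasi-likelihood F test of edgeR, Benjamini-Hochberg over all genes tested). Of 16179 genes tested 2.13% passed as lower and 0.668% as higher, 2.8% in all. At an unadjusted p under 0.05, 2 of the 10 were lower and 0 higher, and DESeq2 called 2 lower and 0 higher. The median log2 fold change of the 10 genes was -0.23, against 0.00 over all genes tested, and 8 of the 10 values were negative.

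In Tyk2ΔIEC against Tyk2fl/fl tumors, 2 of the 10 passed as higher, the receptor chain Il22ra1 and the nitric oxide synthase Nos2, and 0 as lower. This share is close to the background, since 10.2% of 17668 genes tested passed as higher and 9.71% as lower, 19.9% in all. At an unadjusted p under 0.05, 2 were higher and 0 lower with edgeR, and DESeq2 also called 2 higher and 0 lower. The median log2 fold change of the 10 genes was -0.10, against -0.00 over all genes tested.

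**Figure D2:**
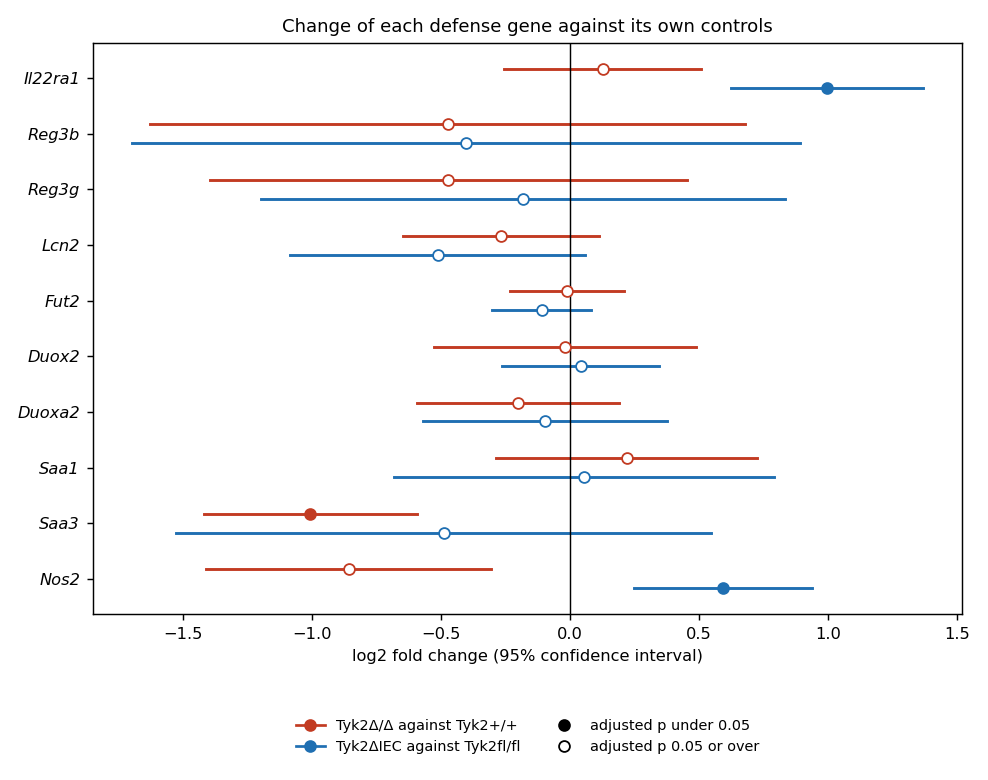
Log2 fold change (horizontal axis) with its 95% confidence interval for each of the 10 genes in Tyk2Δ/Δ against Tyk2+/+ and in Tyk2ΔIEC against Tyk2fl/fl tumors. Filled points passed at an adjusted p under 0.05 (Saa3 at -1.005 in Tyk2Δ/Δ, Il22ra1 at 0.997 and Nos2 at 0.59 in Tyk2ΔIEC tumors), and the wide intervals of Reg3b and Reg3g cross 0 in both comparisons.

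Il22ra1 (chromosome 4, 135728172 to 135752140, + strand) was 1.995-fold higher in Tyk2ΔIEC than in Tyk2fl/fl tumors. The 4 Tyk2ΔIEC libraries had 9.85, 14.6, 13.5 and 18.8 CPM, against 5.91 (lowest), 7.19 (median) and 9.06 CPM (highest) in the 7 Tyk2fl/fl libraries. The groups did not overlap, which held for 17.1% of 14666 genes with a mean of at least 1 CPM and for 1 of the 10 genes here. The log2 fold change was 0.997 ± 0.17 (SE; edgeR adjusted p = 0.00298), and it passed in all 20 alternatives, with values between 0.82 and 1.12 and adjusted p up to 0.0448. With only the Tyk2fl/fl replicates low in Xist (4 to 7) as controls it was 0.91 (adjusted p = 0.0123).

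Without a Tyk2 deletion in the compared group, Il22ra1 differed as well: the 3 Tyk2+/+ libraries had 11.5, 17.6 and 17.1 CPM, also above all 7 Tyk2fl/fl libraries. Between these genotypes with intact Tyk2 the log2 fold change was 1.115 ± 0.18 (Tyk2+/+ over Tyk2fl/fl, adjusted p = 0.00171). Of 17252 genes tested 7.37% passed as higher and 5.49% as lower in that contrast, and Il22ra1 was the only one of the 10 to pass, whereas DESeq2 called 2 higher and 1 lower. Genotype and experiment cannot be told apart there. The Tyk2fl/fl libraries were also the deepest, in that contrast as in Tyk2ΔIEC against Tyk2fl/fl tumors. The share of all genes without overlap was not computed for Tyk2+/+ against Tyk2fl/fl tumors. Tyk2Δ/Δ libraries had 18.5, 17.4 and 15.1 CPM, which overlapped the Tyk2+/+ values (log2 fold change 0.13 ± 0.17, 95% confidence interval -0.26 to 0.51, adjusted p = 0.685). Ordered by mean, the level was 17.03 ± 1.73 CPM in Tyk2Δ/Δ (SD, n = 3), 15.4 ± 3.38 in Tyk2+/+ (n = 3), 14.2 ± 3.69 in Tyk2ΔIEC (n = 4) and 7.24 ± 1.26 CPM in Tyk2fl/fl tumors (n = 7). The first 3 of these genotypes overlapped each other, and only the step to Tyk2fl/fl exceeded the spread. The change in Tyk2Δ/Δ minus that in Tyk2ΔIEC tumors was -0.86 ± 0.27 (adjusted p = 0.0617). It passed with DESeq2 (0.0287) and without Tyk2+/+ replicate 1 (0.0382), Tyk2ΔIEC replicate 1 (0.0285) or Tyk2fl/fl replicate 4 (0.0468).

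Nos2 (chromosome 11, 78920787 to 78960254, + strand) was the only one of the 10 genes to pass the test of the difference between both changes. The Tyk2Δ/Δ libraries had 53.97, 57.9 and 62.7 CPM, against 64.9, 106 and 142 CPM in Tyk2+/+ libraries. All 3 Tyk2Δ/Δ values lay below the lowest Tyk2+/+ value, but Tyk2+/+ replicate 1 was close to them. Groups without overlap were seen for 30% of 14616 genes with a mean of at least 1 CPM in this comparison, and for 2 of the 10 genes here. The log2 fold change was -0.86 ± 0.24 and did not pass (adjusted p = 0.0963). It passed with DESeq2 (0.00396), without the filter on low counts (0.0168) and without Tyk2+/+ replicate 1 (-1.11, adjusted p = 0.00689), and leaving out any other library gave adjusted p values up to 0.252.

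In the epithelial deletion Nos2 was higher. The Tyk2ΔIEC libraries had 90.5, 83.6, 114 and 138 CPM, against 52.1 (lowest), 74.9 (median) and 88.2 CPM (highest) in Tyk2fl/fl libraries. In 3 of the 4 Tyk2ΔIEC libraries the level exceeded every Tyk2fl/fl value. The log2 fold change of 0.59 ± 0.16 passed (adjusted p = 0.0221), but not without Tyk2ΔIEC replicate 3 (0.55, adjusted p = 0.0779) or replicate 4 (0.43, adjusted p = 0.0896). The change in Tyk2Δ/Δ minus that in Tyk2ΔIEC tumors was -1.45 ± 0.31 (95% confidence interval -2.095 to -0.79, adjusted p = 0.00935) and passed in all 24 alternatives, with adjusted p up to 0.0449. The controls differed too, with means of 104 ± 38.6 CPM in Tyk2+/+ (SD, n = 3) and 71.8 ± 13.4 CPM in Tyk2fl/fl tumors (n = 7), a log2 fold change of 0.56 ± 0.20 that did not pass (adjusted p = 0.0745). All 3 Tyk2Δ/Δ values lay within the Tyk2fl/fl range, and all 4 Tyk2ΔIEC values within the Tyk2+/+ range. Of 17252 genes tested 5.23% passed in this direction and 7.96% in either. Between the deletions themselves, Nos2 was at -0.88 ± 0.23 in Tyk2Δ/Δ relative to Tyk2ΔIEC tumors and did not pass (adjusted p = 0.0605). None of the 10 passed there with edgeR, 1 was lower at an unadjusted p under 0.05, DESeq2 called 1 lower, and 2.17% of all genes passed in either direction, 1.74% as lower.

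Saa3 (chromosome 7, 46711998 to 46715700, - strand), an acute phase apolipoprotein that mouse macrophages and epithelium produce locally, was lower in Tyk2Δ/Δ tumors. These had 39.7, 62.3 and 55.6 CPM, against 84.9, 105 and 123 CPM in Tyk2+/+ tumors, so that all 3 values lay below the Tyk2+/+ range. The log2 fold change was -1.005 ± 0.18 (95% confidence interval -1.42 to -0.59, adjusted p = 0.0311). At this size Saa3 also passed a threshold of 2-fold, as did 1.21% of all genes in the lower direction. The adjusted p lay above 0.05 when Tyk2Δ/Δ replicate 1 (0.054), 2 (0.0642) or 3 (0.0634) or Tyk2+/+ replicate 3 (0.112) was left out, with log2 fold changes of -0.84 to -1.13. It was 0.399 when all 17 libraries were fitted together.

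Tyk2fl/fl libraries differed among themselves in Saa3 more than the genotypes did, with 52.6 (lowest), 87.8 (median) and 364 CPM (highest). Replicates 6 and 7 had 166 and 364 CPM and the other 5 libraries at most 93.4 CPM. Tyk2ΔIEC libraries had 101, 83.8, 73.1 and 99.9 CPM, within that range. The log2 fold change was -0.49 ± 0.48 (95% confidence interval -1.52 to 0.55, adjusted p = 0.508).

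Markers of other cells moved with Saa3 and Nos2 in Tyk2Δ/Δ tumors. The 4 T cell markers summed to 3.98 to 5.59 CPM in Tyk2Δ/Δ against 9.06 to 13.6 CPM in Tyk2+/+ tumors, and 2 of the 4 passed as lower. Of all genes tested, 2.13% passed as lower in this comparison, and 9.71% as lower and 10.2% as higher in Tyk2ΔIEC tumors. The T cell markers summed to 4.40 to 9.56 CPM in Tyk2fl/fl tumors. In Tyk2+/+ over Tyk2fl/fl tumors all 4 log2 fold changes were positive and 1 passed as higher, as did 7.37% of all genes tested. The 6 macrophage markers summed to 167 to 210 CPM in Tyk2Δ/Δ against 198 to 249 CPM in Tyk2+/+ tumors, with negative log2 fold changes for all 6 (-0.37 to -0.12), and 0 of 6 passed with edgeR (2 lower at an unadjusted p under 0.05, 1 with DESeq2). Smooth muscle markers summed to 104 to 166 CPM in Tyk2Δ/Δ against 227 to 408 CPM in Tyk2+/+ tumors, and 5 of 6 passed as lower. The 6 goblet cell markers summed to 1544 to 2016 CPM in Tyk2Δ/Δ against 1906 to 2590 CPM in Tyk2+/+ tumors. All 6 log2 fold changes were negative there (median -0.315), and 0 passed with edgeR (3 lower at an unadjusted p under 0.05, 1 with DESeq2). In Tyk2ΔIEC tumors all 6 were positive (median 0.49) and 0 passed. In Tyk2ΔIEC tumors the 6 fibroblast markers summed to 1217 to 1543 CPM, against 1303 to 2118 CPM in Tyk2fl/fl tumors, and 4 of 6 passed as lower, as did 1 of 6 macrophage markers. The 7 squamous epithelium markers summed to 71.7 to 343 CPM in Tyk2ΔIEC against 76.6 to 232 CPM in Tyk2fl/fl tumors, with 6 of 7 log2 fold changes positive, a median of 1.63 and 1 passing as higher, the keratin gene Krt4 (named after its value was seen). Krt4 was at 7.31 to 19.6 CPM in Tyk2ΔIEC and 5.58 to 15.2 CPM in Tyk2+/+ tumors, both above the 2.38 to 4.80 CPM in Tyk2fl/fl tumors, as Il22ra1 was. Its log2 fold changes over Tyk2fl/fl were 2.12 ± 0.25 (adjusted p = 0.000599) and 1.67 ± 0.30 (adjusted p = 0.0031). Groups without overlap were seen for 17.1% of 14666 genes in Tyk2ΔIEC against Tyk2fl/fl tumors. For Tyk2+/+ against Tyk2fl/fl tumors that share was not computed. Smooth muscle markers summed to 1261 CPM in Tyk2ΔIEC replicate 1, with a median of 179 CPM over the 4 Tyk2ΔIEC libraries, against 140 to 677 CPM in Tyk2fl/fl tumors, and 0 of 6 passed with edgeR or DESeq2 (0 at an unadjusted p under 0.05). No marker of these lists was at 0 in all libraries of a genotype, and the part of these cells in the values of Saa3, Nos2 and Il22ra1 was not tested.

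Saa1 (chromosome 7, 46740497 to 46742980, - strand) lies 24796 bp from Saa3 on the same strand and encodes the main acute phase serum amyloid. It had 450, 258 and 364 CPM in Tyk2Δ/Δ against 234, 375 and 302 CPM in Tyk2+/+ tumors (log2 fold change 0.22 ± 0.22, adjusted p = 0.587). Tyk2ΔIEC libraries had 285, 149, 121 and 579 CPM, against 197 (lowest), 296 (median) and 334 CPM (highest) in Tyk2fl/fl libraries (0.06 ± 0.34, adjusted p = 0.927). The groups overlapped in both comparisons, and Tyk2ΔIEC libraries spread beyond the Tyk2fl/fl range at both ends. Saa2, a near-identical copy in the mouse, had 2 to 22 counts per library against 2504 to 11573 for Saa1. The authors counted reads with STAR and do not state how reads that fit both copies were treated, so the values of Saa1 are uncertain.

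Reg3b and Reg3g encode secreted C-type lectins, of which Reg3g is known to bind Gram-positive bacteria. Reg3b (chromosome 6, 78370657 to 78373466, + strand) had 25.99, 5.67 and 10.7 CPM in Tyk2Δ/Δ against 18.2, 12.4 and 27.6 CPM in Tyk2+/+ tumors, and 12.1, 7.002, 12.7 and 21.5 CPM in Tyk2ΔIEC against 3.99 (lowest), 13.3 (median) and 51.7 CPM (highest) in Tyk2fl/fl tumors. Reg3g (chromosome 6, 78466269 to 78468872, - strand) had 128, 50 and 49.6 CPM in Tyk2Δ/Δ against 79.8, 80.3 and 152 CPM in Tyk2+/+ tumors, and 36.4, 44.6, 85.4 and 114 CPM in Tyk2ΔIEC against 16.6 (lowest), 64.2 (median) and 158 CPM (highest) in Tyk2fl/fl tumors. The groups overlapped for both genes and both comparisons. The 95% confidence intervals of Reg3b were -1.63 to 0.68 in Tyk2Δ/Δ and -1.70 to 0.89 in Tyk2ΔIEC tumors (adjusted p = 0.609 and 0.676), and those of Reg3g -1.39 to 0.45 and -1.20 to 0.83 (adjusted p = 0.52 and 0.821), so that a 2-fold decrease lay within all 4 intervals and a 2-fold increase within 0 of them. How reads that fit both paralogs were treated is not stated, so the values of both are uncertain.

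Lcn2 (chromosome 2, 32384633 to 32388252, - strand), which binds the siderophores by which bacteria take up iron, had 111, 117 and 132 CPM in Tyk2Δ/Δ against 166, 159 and 104 CPM in Tyk2+/+ tumors (log2 fold change -0.27 ± 0.17, adjusted p = 0.373). Tyk2ΔIEC tumors had 134, 119, 207 and 245 CPM, against 123 (lowest), 264 (median) and 361 CPM (highest) in Tyk2fl/fl tumors (-0.51 ± 0.26, 95% confidence interval -1.08 to 0.06, adjusted p = 0.192). The groups overlapped in both comparisons.

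Fut2 (chromosome 7, 45648591 to 45666394, - strand), the fucosyltransferase that adds fucose to epithelial glycans, varied least. It had 125, 120 and 118 CPM in Tyk2Δ/Δ against 102, 130 and 130 CPM in Tyk2+/+ tumors, and 127, 111, 111 and 120 CPM in Tyk2ΔIEC against 109 (lowest), 131 (median) and 149 CPM (highest) in Tyk2fl/fl tumors. The log2 fold changes were -0.01 (95% confidence interval -0.23 to 0.21, adjusted p = 0.958) and -0.11 (-0.30 to 0.08, adjusted p = 0.424). Both intervals lay within 1.5-fold of no change.

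Duox2 (chromosome 2, 122279247 to 122298449, - strand), the dual oxidase that releases hydrogen peroxide at the epithelial surface, and Duoxa2 (chromosome 2, 122298900 to 122302885, + strand), its maturation factor, lie head to head, 450 bp apart. Duox2 had 301, 225 and 284 CPM in Tyk2Δ/Δ against 176, 321 and 316 CPM in Tyk2+/+ tumors, and 231, 196, 206 and 329 CPM in Tyk2ΔIEC against 195 (lowest), 232 (median) and 280 CPM (highest) in Tyk2fl/fl tumors. Duoxa2 had 105, 73.4 and 88.1 CPM in Tyk2Δ/Δ against 77.5, 115 and 110 CPM in Tyk2+/+ tumors, and 69.5, 62.6, 60.3 and 144 CPM in Tyk2ΔIEC against 76.2 (lowest), 84.97 (median) and 110 CPM (highest) in Tyk2fl/fl tumors. In Tyk2ΔIEC tumors 3 Duoxa2 values lay below and 1, replicate 4, above every Tyk2fl/fl value. The log2 fold changes of Duoxa2 were -0.20 ± 0.17 in Tyk2Δ/Δ (adjusted p = 0.519) and -0.10 ± 0.22 in Tyk2ΔIEC tumors (adjusted p = 0.797), and without Tyk2ΔIEC replicate 4 the second was -0.50 and passed (adjusted p = 0.0279). For Duox2 they were -0.02 ± 0.22 (adjusted p = 0.97) and 0.04 ± 0.14 (adjusted p = 0.861). Duoxa2 overlaps Duoxa1 on the opposite strand over 695 bp, but Duoxa1 had only 213 counts in all 17 libraries together and the libraries kept the strand.

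Across the 17 libraries, the Duox2 and Duoxa2 levels (log2 CPM) varied together, with Pearson's r = 0.833 (permutation p = 6e-05, adjusted over 3 pairs 0.00018) and Spearman's rho = 0.797 (p = 0.0002). Without the 2 libraries farthest from the median of Duox2, r was 0.767. As deviations from the genotype means it was 0.876, and within the 7 Tyk2fl/fl libraries 0.817. Reg3b and Reg3g, 92802 bp apart, gave r = 0.591 (permutation p = 0.011, adjusted 0.017) and rho = 0.574 (p = 0.018), with r = 0.491 without the 2 farthest libraries, 0.566 from genotype means and 0.441 within Tyk2fl/fl. Saa1 and Saa3 gave r = -0.167 (permutation p = 0.5, adjusted 0.5), rho = 0.007 (p = 0.99), -0.341 without the 2 farthest libraries and -0.476 within Tyk2fl/fl tumors.

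**Figure D3:**
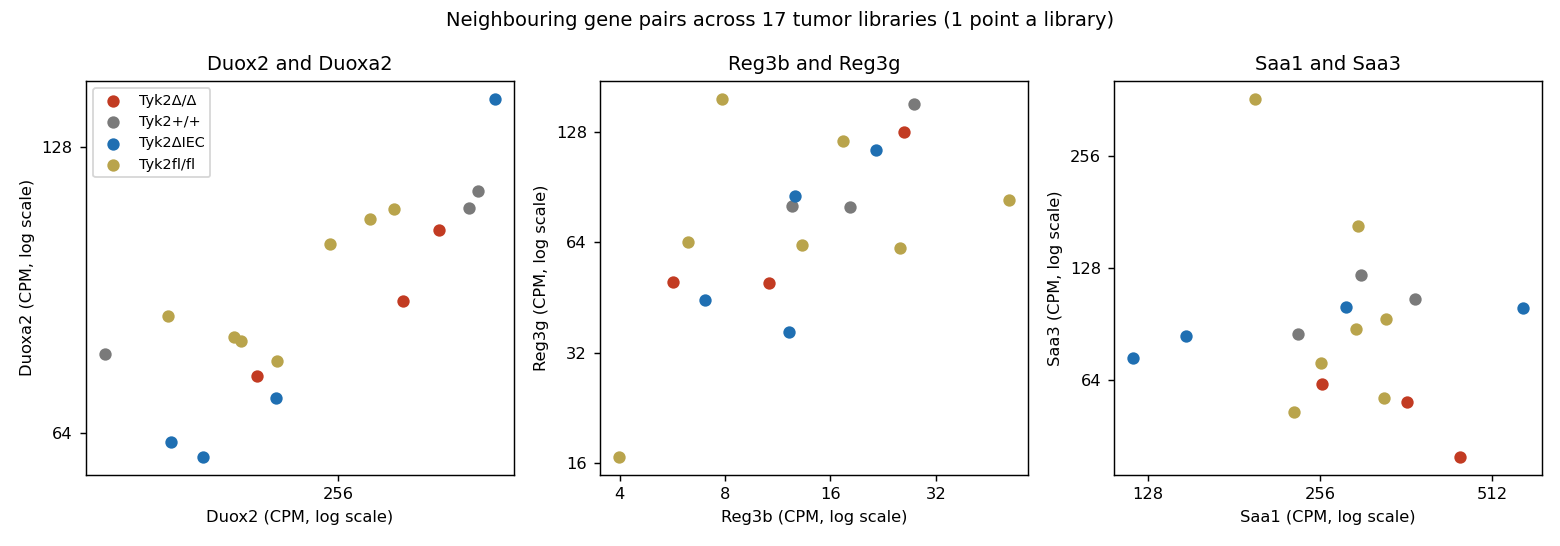
CPM of neighbouring genes plotted against each other on log axes, 1 point for each of the 17 libraries, coloured by genotype. Duox2 and Duoxa2 follow a line (r = 0.833), Reg3b and Reg3g do so loosely (r = 0.591), and Saa1 and Saa3 show no common course (r = -0.167).

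Libraries stood out over several of the genes at once. Tyk2ΔIEC replicate 4 was the highest of its 4 libraries for 8 of the 10 genes (all but Fut2 and Saa3), and its counts on the 10 genes made up 0.180% of its total, the largest share of the 17 libraries. Tyk2+/+ replicate 1 was the lowest of its 3 for 8 of the 10 genes (all but Reg3b and Lcn2). Tyk2Δ/Δ replicate 1 was the highest of its 3 for 7 of the 10 and the lowest for the other 3, Lcn2, Saa3 and Nos2.

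For each of the 10 genes the most similar profiles, up to 3 given here, were those with the highest Pearson correlation of log2 CPM over the 17 libraries, of genes with a mean of at least 1 CPM. These values are descriptive, and the points share the difference between genotypes. Il22ra1 was followed most closely by Naip2, a sensor of bacterial secretion systems (0.948), Slc35e1 (0.942) and the coat protein gene Copb2 (0.937). Nos2 was followed by Cd274, which encodes PD-L1 (0.907), and by the interferon-induced genes Oasl1 (0.889) and Ifit1 (0.869). Duoxa2 was followed by Krt20, a keratin of differentiated colonocytes (0.947), Plet1 (0.924) and Gprc5a (0.919), and Duox2 by Ptprh (0.905), Clca4b (0.887) and C2cd2l (0.870). Saa1 was followed by the efflux pump gene Abcg2 (0.867) and the carboxylesterase genes Ces2c (0.863) and Ces2e (0.861), and Saa3 by the interleukin 4 receptor gene Il4ra (0.874), Phactr1 (0.860) and the complement gene C1ra (0.823). Lcn2 was followed by the endoplasmic reticulum chaperone gene Hspa5 (0.875), Slc22a3 (0.863) and Paqr7 (0.861). For Reg3g they were Pir (0.843), Tst (0.814) and Krt18 (0.808), for Fut2 Osgin1 (0.849) and Prss22 (0.826), and for Reg3b Tsc22d4 (0.764), Ankrd37 (0.694) and E330011O21Rik (0.691).

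Upstream of these genes, the ligand Il22 was close to the limit of detection, with 0 to 2 counts in Tyk2Δ/Δ, 0 to 4 in Tyk2+/+, 1 to 4 in Tyk2ΔIEC and 1 to 13 in Tyk2fl/fl libraries, and was not tested. The second receptor chain, Il10rb, was lower in Tyk2ΔIEC tumors, at 46.5 ± 4.30 CPM (SD, n = 4) against 60.5 ± 8.65 CPM in Tyk2fl/fl tumors (n = 7), a log2 fold change of -0.35 ± 0.11 (adjusted p = 0.0346). The adjusted p lay above 0.05 without Tyk2ΔIEC replicate 1 (0.0705), 2 (0.0896) or 3 (0.096). In Tyk2Δ/Δ tumors Il10rb was at 56.7 ± 3.38 CPM against 57.0 ± 1.71 CPM in Tyk2+/+ tumors (n = 3 each; adjusted p = 0.872). Of 9 ligands and receptor chains listed 4 were tested in each comparison, and Il10rb was the only one to pass. Counts of this and the following lists stand beside the shares of all genes tested. In Tyk2Δ/Δ tumors 2.13% passed as lower and 0.668% as higher, and in Tyk2ΔIEC tumors 9.71% and 10.2%. In Tyk2Δ/Δ tumors 0 passed with edgeR, 1 was lower at an unadjusted p under 0.05 and DESeq2 called 1 lower. The medians of this list were -0.11 in Tyk2Δ/Δ and -0.30 in Tyk2ΔIEC tumors.

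Of 9 receptor signalling genes, the cytokine inhibitor Socs1 fell in Tyk2Δ/Δ tumors, with a log2 fold change of -1.31 ± 0.19 (adjusted p = 0.0147). In Tyk2ΔIEC tumors it was at 0.16 (adjusted p = 0.552), and the feedback inhibitor Socs3 (-0.41 ± 0.13, adjusted p = 0.0436) and Bcl3 (-0.34 ± 0.08, adjusted p = 0.0122), both known Stat3 targets, fell. The Tyk2+/+ controls, with intact Tyk2, also had lower mean levels of both than the Tyk2fl/fl controls. Bcl3 was at 105 ± 5.83 CPM in Tyk2ΔIEC (SD, n = 4) and 108 ± 4.97 CPM in Tyk2+/+ tumors (n = 3), all 7 libraries below the lowest Tyk2fl/fl library (mean 135 ± 13.5 CPM, n = 7), and its log2 fold change in Tyk2+/+ over Tyk2fl/fl was -0.30 ± 0.08 (adjusted p = 0.0163). For Socs3 that value was -0.32 ± 0.13 (adjusted p = 0.104). Groups without overlap were seen for 17.1% of 14666 genes with a mean of at least 1 CPM in Tyk2ΔIEC against Tyk2fl/fl tumors. For Tyk2+/+ against Tyk2fl/fl tumors that share was not computed. The median of the list was 0.01 in Tyk2Δ/Δ and 0.10 in Tyk2ΔIEC tumors. Of the IL23 and type 17 cytokine genes, 0 of 8 tested passed in Tyk2Δ/Δ tumors with edgeR (3 lower at an unadjusted p under 0.05, 1 lower with DESeq2), and 0 of 9 in Tyk2ΔIEC tumors (1 higher at an unadjusted p under 0.05, 0 with DESeq2). Medians were -0.47 and 0.06.

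Of 14 other genes known to be induced by IL22 or Stat3, 4 of 11 tested fell in Tyk2Δ/Δ tumors and 0 rose (1 at an unadjusted p under 0.05, and 1 with DESeq2). These were S100a8 (-0.87 ± 0.12, adjusted p = 0.0146) and S100a9 (-0.92 ± 0.19, adjusted p = 0.0465), the calprotectin subunits that neutrophils carry in bulk, the complement gene C3 (-1.09 ± 0.17, adjusted p = 0.0204) and the amino acid transporter Slc6a14 (-0.53 ± 0.08, adjusted p = 0.0185). The controls differed in Slc6a14, with 84.2 ± 6.57 CPM in Tyk2+/+ and 45.75 ± 13.4 CPM in Tyk2fl/fl tumors. Its Tyk2Δ/Δ values, 55.3 to 63.3 CPM, lay within the Tyk2fl/fl range of 31.6 to 64.4 CPM. The neutrophil markers summed to 68.5 to 83.0 CPM in Tyk2Δ/Δ against 72.5 to 115 CPM in Tyk2+/+ tumors, 0 of 5 tested passed with edgeR or DESeq2 (2 lower at an unadjusted p under 0.05), and all 5 log2 fold changes were negative (-0.65 to -0.31). Csf3r, Cxcr2 and Mmp8 were below every Tyk2+/+ library in all 3 Tyk2Δ/Δ libraries, whereas Ly6g, which made up most of the sum, overlapped. Groups without overlap were seen for 30% of 14616 genes with a mean of at least 1 CPM in this comparison. Of the 6 neutrophil markers listed, Elane was at 0 in all libraries of both genotypes and was not tested. In Tyk2ΔIEC tumors 1 of 12 tested passed, Lrg1 (-1.05, adjusted p = 0.0418), which lies outside the rule for named genes and is named after its value was seen. Of all genes tested, 9.71% passed as lower in Tyk2ΔIEC and 2.13% in Tyk2Δ/Δ tumors. The medians of the list were -0.32 and -0.36.

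Among 9 other NADPH oxidase genes, Nox1, the colonic epithelial oxidase (-0.76 ± 0.15, adjusted p = 0.041), and Cybb, the phagocyte oxidase (-0.70 ± 0.13, adjusted p = 0.0378), fell in Tyk2Δ/Δ tumors, and the shared subunit Cyba fell in Tyk2ΔIEC tumors (-0.34 ± 0.08, adjusted p = 0.0121), of 8 tested in each comparison. Their list medians were -0.14 and -0.14. Of 7 other antimicrobial and barrier genes tested, 0 passed in either comparison with edgeR (at an unadjusted p under 0.05, 4 lower in Tyk2Δ/Δ and 1 lower in Tyk2ΔIEC tumors, and 1 lower in each with DESeq2), with medians of -0.26 and -0.05. Of the nitric oxide and arginine genes, Irf1, an activator of Nos2, fell in Tyk2Δ/Δ (-0.60 ± 0.10, adjusted p = 0.0212) and rose in Tyk2ΔIEC tumors (0.48 ± 0.15, adjusted p = 0.0433), and Ass1, which resupplies arginine, fell in Tyk2ΔIEC tumors (-0.34 ± 0.10, adjusted p = 0.032). Here too the Tyk2+/+ controls stood apart from the Tyk2fl/fl controls. Ass1 was at 31.9 ± 2.41 CPM in Tyk2ΔIEC and 32.2 ± 2.28 CPM in Tyk2+/+ tumors, all libraries below those of Tyk2fl/fl tumors (41.2 ± 5.29 CPM). Groups without overlap were seen for 17.1% of 14666 genes in Tyk2ΔIEC against Tyk2fl/fl tumors, a share not computed for Tyk2+/+ against Tyk2fl/fl tumors. The log2 fold change of Ass1 in Tyk2+/+ over Tyk2fl/fl was -0.33 ± 0.10 (adjusted p = 0.0391). In that contrast Irf1 was higher by 0.53 ± 0.15 (adjusted p = 0.0297) and Cybb by 0.42 ± 0.12 (adjusted p = 0.0286) on the log2 scale. Nox1 was at 55.95 ± 10.6 CPM in Tyk2+/+ and 30.8 ± 11.1 CPM in Tyk2fl/fl tumors. Its Tyk2Δ/Δ values, 28.5 to 37.7 CPM, lay within the Tyk2fl/fl range of 10.3 to 43.3 CPM. The medians of this list were 0.06 and 0.12, beside 0.00 and -0.00 over all genes.

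**Figure D4:**
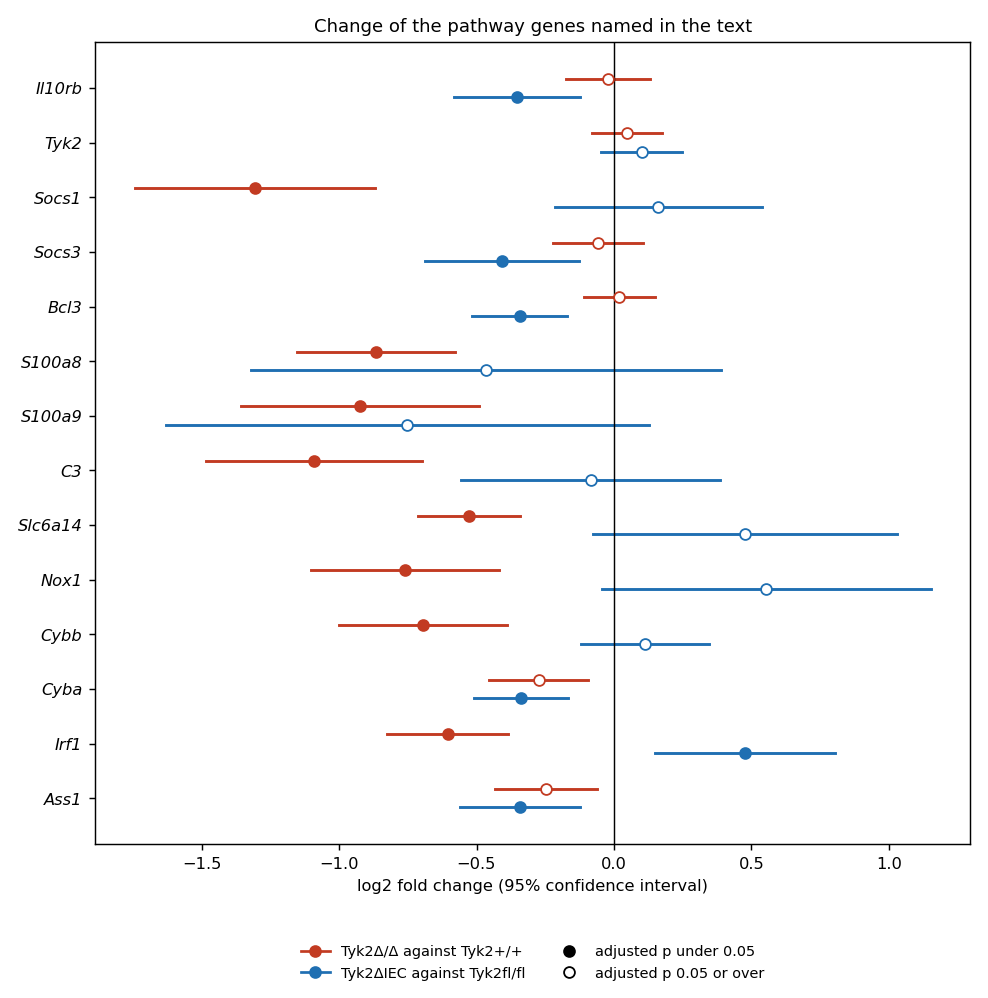
Log2 fold change (horizontal axis) with its 95% confidence interval for the pathway genes that the naming rule chose (Il22 was not tested and Lrg1 is not drawn), in Tyk2Δ/Δ against Tyk2+/+ and in Tyk2ΔIEC against Tyk2fl/fl tumors, filled where the adjusted p was under 0.05. Socs1 lies at -1.31 and Irf1 at -0.60 in Tyk2Δ/Δ, whereas in Tyk2ΔIEC tumors Socs1 lies at 0.16 and Irf1 at 0.48.

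These pathway calls differed in how they held up under other fits. When all 17 libraries were fitted together, those of S100a8 (adjusted p = 0.368), S100a9 (0.357), Slc6a14 (0.416), Nox1 (0.266) and Irf1 (0.0938) in Tyk2Δ/Δ tumors were lost. In Tyk2Δ/Δ tumors Socs1 and S100a8 lost their call without Tyk2Δ/Δ replicate 2 (0.0728 and 0.0542). C3 lost it without Tyk2Δ/Δ replicate 1 (0.0583) or 2 (0.0848) or Tyk2+/+ replicate 3 (0.0799), and Slc6a14 without Tyk2Δ/Δ replicate 2 (0.0908) or Tyk2+/+ replicate 3 (0.0868). Cybb lost it without Tyk2Δ/Δ replicate 1 (0.0884) or 2 (0.15) or Tyk2+/+ replicate 1 (0.0756) or 3 (0.119). Nox1 kept its call without Tyk2+/+ replicate 2 and lost it without any other single library (adjusted p up to 0.121). S100a9 kept it without Tyk2+/+ replicate 2 or Tyk2Δ/Δ replicate 1 and lost it without any of the other 4 (adjusted p up to 0.164). Irf1 passed without Tyk2+/+ replicate 1 or 2 and reached 0.108 without Tyk2Δ/Δ replicate 2. In Tyk2ΔIEC tumors Bcl3 and Cyba passed in all 20 alternatives, whereas leaving out single libraries raised the adjusted p of Socs3 to 0.104, of Irf1 to 0.144, of Ass1 to 0.1 and of Lrg1 to 0.12. With only Tyk2fl/fl replicates 4 to 7 as controls, the calls of Irf1 (0.31, adjusted p = 0.0798), Socs3 (-0.39, adjusted p = 0.112), Ass1 (-0.28, adjusted p = 0.0971) and Lrg1 (-1.16, adjusted p = 0.0504) were lost. Of the 20 alternatives, Socs3 did not pass in 12, Irf1 and Lrg1 in 10 each and Ass1 in 6.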

How the data were processed

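Colorectal tumor RNA of 17 libraries in 4 genotypes was analysed, grouped by the genotype in each label. The authors made directional libraries, aligned single-end reads with STAR 2.6.1a (GRCm38 in the processing notes) and deposited raw counts per gene, neither filtered nor normalized. The 17 single-sample tables were identical to the series columns. Identifiers were named through GENCODE release 21 (55154 of 55421 matched without version; the others held 0.0531% of counts), and coordinates are from that release.

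Each deletion was compared with its own controls with edgeR 4.0.16 in R 4.3.3: filterByExpr (minimum count 10, total 15), TMM scaling, quasi-likelihood F test, Benjamini-Hochberg adjustment over all genes. The SE is the log2 fold change over the square root of F. The difference between both changes, and Tyk2+/+ against Tyk2fl/fl, were contrasts over all libraries. Log2 CPM used a prior count of 2. Pearson correlations were tested with 100000 permutations and Spearman correlations with fewer (scipy 1.17.1), and upstream windows aligned with Biopython 1.88. Named genes were the 10 members, at most 4 genes per pathway list that passed in either comparison, by smallest p, Il22, Il10rb and Tyk2 in any case, and 3 similar genes per member; some genes these rules choose are not reported here and were left out of the list counts. Alternatives were DESeq2 1.42.0, limma 3.58.1 voom, other scalings and filters, 1 joint fit, a replicate block, Tyk2fl/fl replicates 4 to 7 as only controls and leaving out each library. The fits were tested on simulated data. Genes and lists were chosen with earlier results of these data known.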

Additional observations from a re-analysis of the deposited data

Results flagged for a closer look

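Within groups of 4 or 7 libraries, 2 of 20 combinations of gene and genotype held a library far from the others by Dixon's test at the 95% level, which chance gives for about 1 in 20. Duoxa2 was at 144 CPM in Tyk2ΔIEC replicate 4, the highest of 4. Reg3g was at 16.6 CPM in Tyk2fl/fl replicate 3, the lowest of 7.

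The change in Tyk2Δ/Δ tumors differed from that in Tyk2ΔIEC tumors in the edgeR contrast of both changes for Nos2 (difference of the log2 fold changes -1.45, adjusted p = 0.00935), Socs1 (-1.46, adjusted p = 0.00452), Irf1 (-1.07, adjusted p = 0.00906) and Cybb (-0.80, adjusted p = 0.0125). The controls entered these differences: in Tyk2+/+ over Tyk2fl/fl tumors Irf1 (0.53, adjusted p = 0.0297) and Cybb (0.42, adjusted p = 0.0286) passed as higher, and Nos2 (0.56, adjusted p = 0.0745) and Socs1 (0.26, adjusted p = 0.369) did not pass.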

How the results depend on the processing

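Of the changes named in the report, those of Il22ra1, Bcl3 and Cyba in Tyk2ΔIEC tumors and the differences for Nos2, Socs1 and Irf1 kept their direction and passed under each alternative run. In Tyk2Δ/Δ tumors the number of the 10 genes passing as lower was 2 with DESeq2 and 2 without the filter on low counts (Saa3 and Nos2), 0 in the fit of all 17 libraries, and 0 to 2 with single libraries left out. Over all genes, 356 passed as higher and 904 as lower with DESeq2, 223 and 797 without the filter, and 52 as higher in the joint fit, against 108 and 345 in the report's fit. Leaving out single libraries gave 17 to 212 higher and 95 to 610 lower. In Tyk2ΔIEC tumors it gave 740 to 1953 higher and 892 to 1845 lower genes, with 1 to 2 of the 10 genes higher and 0 to 1 lower. For the difference between the changes, DESeq2 called 2 of the 10 genes lower and 727 of all genes higher, no filter gave 307 higher and 561 lower, and Tyk2fl/fl replicates 4 to 7 as only controls gave 841 higher. Without single libraries it was 1 to 2 of the 10 genes lower, and 173 to 676 higher and 387 to 1014 lower over all genes. The cause of these shifts was not tested.

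With the replicate number as a block, 24 genes passed as higher and 222 as lower in Tyk2Δ/Δ tumors, 577 and 604 in Tyk2ΔIEC tumors (1 of the 10 genes higher, since Nos2 reached an adjusted p of 0.106), and for the difference 254 as higher and 2 of the 10 genes as lower, while that of Cybb reached an adjusted p of 0.0612. Same-numbered libraries did not deviate together (correlations of deviations from group means -0.113, -0.119 and -0.022 in Tyk2Δ/Δ with Tyk2+/+, and -0.399, -0.108, 0.078 and 0.070 in Tyk2ΔIEC with Tyk2fl/fl), and no Tyk2Δ/Δ or Tyk2ΔIEC library correlated best with its own number. The labels state no pairing, and deviations within so few libraries cannot exclude one. Under the block the log2 fold changes of Reg3b (0.31), Reg3g (0.26), Saa1 (-0.22) and Saa3 (0.28) in Tyk2ΔIEC and of Duox2 (0.018) in Tyk2Δ/Δ tumors took the other sign.

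Other sign changes were of values that had not passed. In Tyk2Δ/Δ tumors library totals as scaling gave 0.025 for Fut2, 0.017 for Duox2 and 0.013 for Il10rb, and limma voom 0.020 for Duox2. Leaving out single libraries moved Il22ra1 between -0.044 and 0.24, Fut2 between -0.12 and 0.050, Duox2 between -0.25 and 0.12, Il10rb between -0.070 and 0.015 and Bcl3 between -0.0019 and 0.062. In Tyk2ΔIEC tumors limma voom gave -0.20 for Saa1, and leaving out single libraries moved Reg3b between -0.74 and 0.13, Reg3g between -0.54 and 0.065, Duox2 between -0.16 and 0.12, Duoxa2 between -0.50 and 0.023, Saa1 between -0.57 and 0.30 and Saa3 between -0.63 and 0.051. For the difference, limma voom gave 0.0049 for Duox2 and replicates 4 to 7 as only controls 0.094 for Reg3b, and single libraries moved Reg3b between -0.84 and 0.33, Reg3g between -0.88 and 0.12, Duox2 between -0.27 and 0.15, Duoxa2 between -0.24 and 0.31, Saa1 between -0.071 and 0.80 and S100a9 between -0.44 and 0.11. Il22, at 0 to 13 counts per library, was too shallow to test.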
